A study of Homo sapiens with 20 samples.

Results

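The region described here holds 3 genes, MYC, the long non-coding RNA (lncRNA) gene PVT1 and the lncRNA gene CASC11, with a surrounding stretch of 1.5 Mb of human chromosome 8 (GRCh38), from 736.2 kb before to 763.8 kb after the MYC start site. Members were all summits of chromatin immunoprecipitation sequencing (ChIP-seq) peaks that fell inside this stretch, 118 of 87308 in the 12 summit lists. Of these, 15 came from the 6 lists made with an antibody against c-Myc (MYC) and 103 from the 6 lists made with an antibody against RNA polymerase II (POL2). The cells were PC-3, an established line of prostate cancer epithelial cells, either wild-type (WT) or with the kinase gene SLK knocked out (SLK-KO, named PSD10), with 3 libraries per antibody and genotype. The labels name no treatment and 1 growth condition for all groups, and how the knockout was made and whether PSD10 is 1 clone are not given in the sources used here. The 6 IgG and 2 Input libraries were not analysed here. A summit is the highest base of a called peak and carries the caller's score for that library alone. Within each list, summits were ranked by score, and a rank percentile is the rank as a percent of the list's length, so that a small value is a strong summit.

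MYC is a transcription factor that pairs with MAX and binds the E-box CACGTG and close variants such as CACGCG, mostly near promoters of genes for growth and protein synthesis. Its own gene is transcribed from neighbouring start sites in the first exon and is under long-range control from the gene-poor stretch around it. PVT1 lies downstream on the same strand, hosts several microRNAs, and is often amplified together with MYC in cancer; its promoter is known to compete with that of MYC for enhancers in some cells. CASC11 lies on the opposite strand, starting close to and within MYC, and is less well understood.

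In GENCODE release 44, MYC (ENSG00000136997.22) spans 127735434 to 127742951 on the plus strand and has its canonical start site at 127736231. PVT1 (ENSG00000249859.14) spans 127794526 to 128187101 on the plus strand, with 132 annotated start sites, the canonical one at 127794541, 58.3 kb downstream of that of MYC. CASC11 (ENSG00000249375.8) spans 127686343 to 127738987 on the minus strand. Its canonical start site is at 127733967, but its outermost start site lies inside MYC, so a summit there can count for both genes. Distances below are from the canonical start sites unless another is named.

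The WT lists were shorter than the SLK-KO lists, at 201 to 365 against 988 to 1420 summits for MYC and 5047 to 17126 against 15436 to 19017 for POL2. Read depth is unknown, so a missing summit means that no peak was called and not that nothing was bound. The epithelial genes KRT8, KRT18 and KRT19 had POL2 summits at a start site (1 kb or less away) in all 6 libraries. EPCAM had one in 1 WT library and in 3 SLK-KO ones, and CDH1 in 1 WT library, while the prostate secretory gene KLK3 and the blood cell genes PTPRC and CD3E had none. The targeted gene SLK had POL2 at a start site in 2 WT libraries and in 3 SLK-KO ones, which does not show whether its product was lost.

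The MYC antibody gave 1 summit in the region in each of the 3 WT libraries, and 4, 5 and 3 in SLK-KO replicates 1, 2 and 3. The groups did not overlap, but the SLK-KO lists were also longer. The same direction without overlap was found in 25.1% of 872 windows of 1.5 Mb with a MYC summit. Relative to list length, the ranges overlapped and the mean was lower in SLK-KO. Each library, WT or SLK-KO, had its one shared summit at the start of PVT1, and the added SLK-KO summits lay in the MYC gene (7 summits) and further inside PVT1 (2 summits, both in SLK-KO replicate 2). POL2 gave 22, 9 and 15 summits in WT and 19, 18 and 20 in SLK-KO, and these ranges overlapped. POL2 summits were at the start and the end of MYC, along PVT1 and in a few places of the gene-poor flanks.

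**Figure D1:**
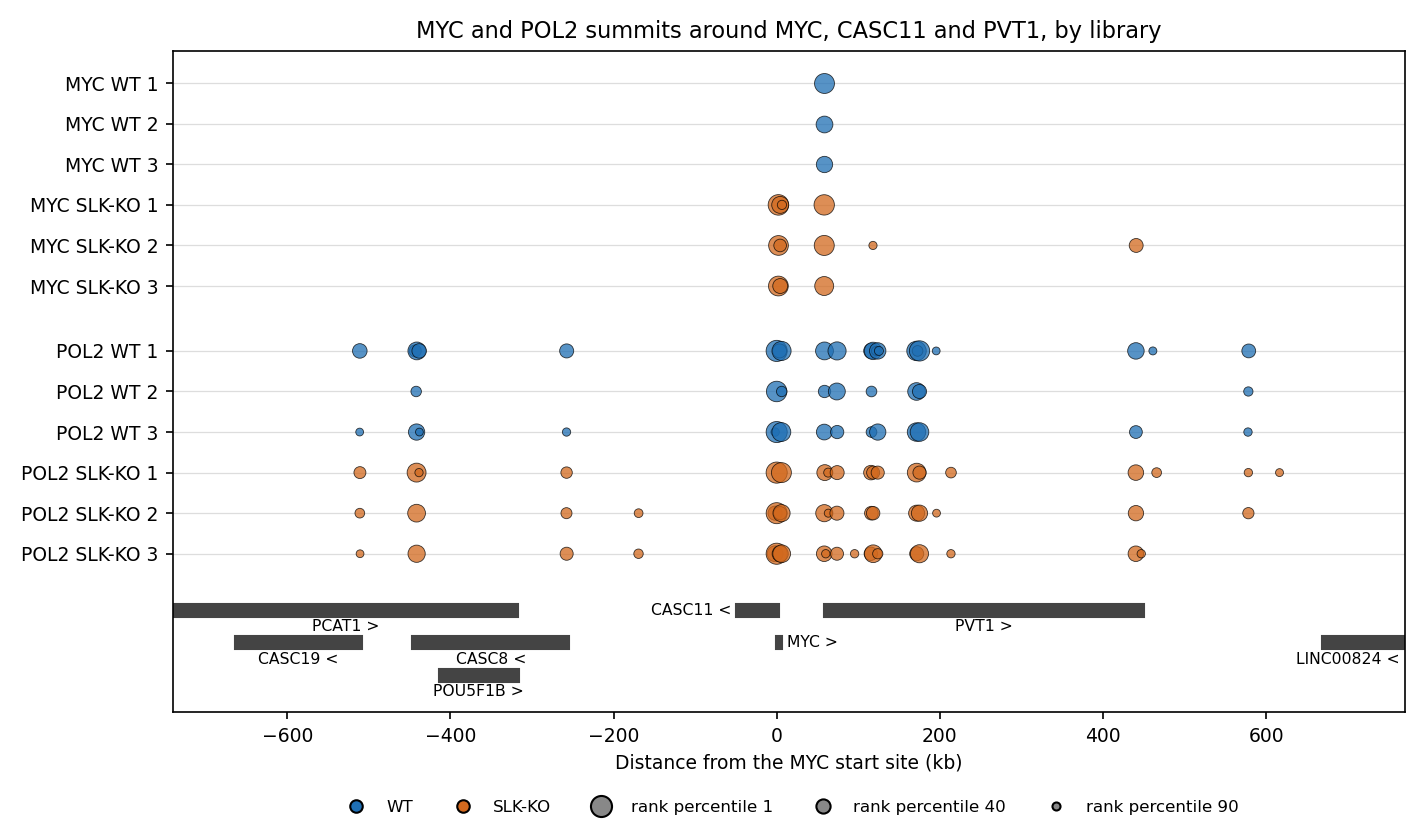
Summits of the 12 libraries (rows, named by antibody, genotype and replicate) against the distance from the MYC start site in kb; each point is 1 summit, and larger points have a better rank percentile within their list. Bars below are genes with their strand. The 3 WT MYC lists hold 1 summit each, at the start of PVT1, while the SLK-KO MYC lists hold 3 to 5.

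At the start of PVT1, the MYC summits of all 6 libraries fell within 65 bp of each other (chromosome 8, 127794522 to 127794586). They lay in the first exon or just upstream of the canonical start site, at -19 to 45 bp from it. The ranks were 26, 50 and 73 in the WT lists and 58, 95 and 125 in the SLK-KO lists, with overlapping ranges. As percentiles of lists of unequal length these were 7.12, 24.9 and 27.3 in WT and 4.76, 6.69 and 12.7 in SLK-KO, again with overlap, so the start of PVT1 was among the better-scored MYC summits in both genotypes. Sites, made by joining summits of the 6 lists that were 250 bp or less apart, were present in all 6 MYC libraries in 3.58% of 2348 cases. Among 18756 lncRNA genes, 21 (0.112%) carried MYC at a start site in every library. PVT1 stood 7th of these 21 by its median percentile of 9.89, after genes such as SNHG15, SNHG17 and MIR17HG, hosts of small nucleolar RNAs and microRNAs. For 10 of the 21, PVT1 included, no coding start site lay within 1 kb of these summits. The nearest one to the PVT1 summits was 55449 bp away.

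Within the MYC gene, the MYC antibody gave 2 sites that were called in all 3 SLK-KO libraries and in no WT library. The first (127738355 to 127738503) lay in the coding part of exon 2, with ranks 47, 117 and 79 and percentiles 3.86, 8.24 and 8.00 in SLK-KO replicates 1, 2 and 3. These ranks are within the length of every WT list, the shortest of which holds 201 summits. The second (127740506 to 127740610) lay in the coding part of exon 3, with ranks 290, 704 and 351. Of these, 290 and 351 are within the longest WT list of 365 summits and past the end of the other WT lists. A further summit (127742734), in the untranslated part of exon 3, was called in SLK-KO replicate 1 alone, at rank 914. All 7 summits were in exons, which make up 55.4% of the canonical MYC transcript, and none was within 1 kb of its canonical start site. Sites with this pattern made up 6.94% of all MYC sites. That the MYC gene holds such a site was known from earlier results of these data, so its presence here is a description and was not tested on its own.

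Sites in coding sequence away from a start site were few among MYC sites, and the number depended on which start sites were counted. Of 2328 MYC sites on chromosomes 1 to 22 and X, 36 (1.55%) lay in coding sequence and more than 1 kb from the canonical start site of any coding gene. Among the 163 sites called in every SLK-KO but no WT library there were 4 such sites (2.45%), and 2 of the 4 were the exon 2 and exon 3 sites of MYC. With every annotated coding start counted, as for the start sites elsewhere, the numbers were 15 (0.644%) and 1 (0.613%). The 1 was the exon 3 site, since the exon 2 site lies within 1 kb of an annotated internal MYC start (610 bp from 127737745 in SLK-KO replicate 3). Against the start of PVT1 in the same library, the exon 2 site ranked better in SLK-KO replicates 1 and 3 (47 against 58, and 79 against 125) and worse in replicate 2 (117 against 95). In the WT lists 339, 151 and 194 summits were ranked below that of the PVT1 start, and none of them was in the MYC gene.

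**Figure D2:**
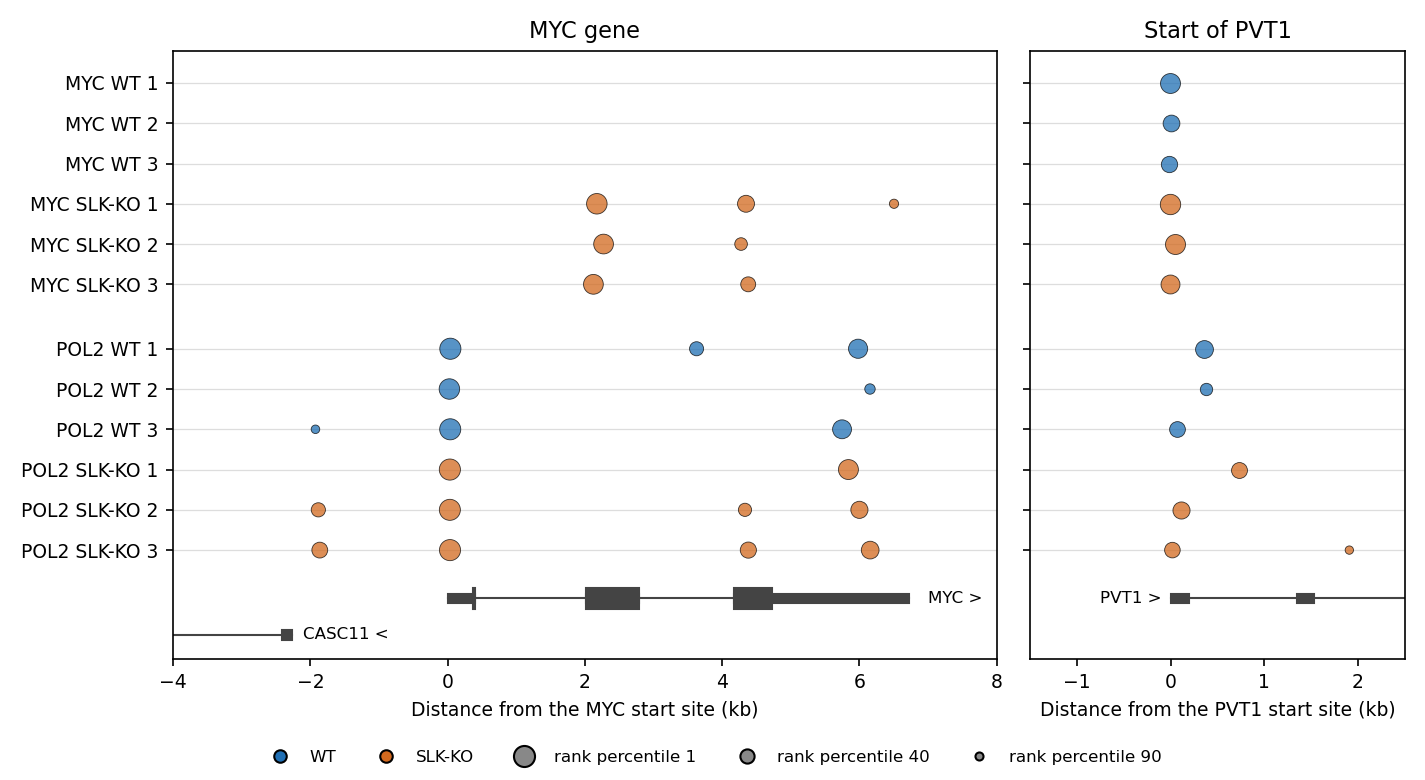
Summits at the MYC gene (left, kb from the MYC start site) and at the start of PVT1 (right, kb from the PVT1 start site) in the 12 libraries; point size gives the rank percentile, boxes below are exons of the canonical transcripts, taller where coding. MYC-antibody summits inside the MYC gene are in the 3 SLK-KO rows and in none of the WT rows, whereas the PVT1 start has one in each of the 6 rows.

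None of the 15 MYC summits of the region had CACGTG within 100 bp, against 32.6% of 4406 MYC summits on chromosomes 1 to 22 and X and 1.93% of positions 2 kb to either side of them. The 15 summits form 6 sites, and these counts take a place once for each library that called it. They are therefore not independent. The 1.5 Mb hold 116 CACGTG motifs, 50 of them in PVT1, 6 in CASC11 and 0 in the MYC gene, and none had a MYC summit within 100 bp in any library. The nearest CACGTG to the PVT1 start summits was 920.5 to 984.5 bp away, measured from the middle of the motif. The variant CACGCG, searched on both strands, was within 100 bp of 6 of the 15 MYC summits. These were the 6 summits at the start of PVT1, which are 1 site, at 6.5 to 38.5 bp from the middle of a motif, and 0 of the 9 others. CACGCG occurs 25 times in the 1.5 Mb. Over all MYC summits 29.8% had it, against 1.52% of positions 2 kb away, and it lay within 100 bp of the canonical start site in 10.7% of coding and 4.41% of lncRNA genes. Of the 103 POL2 summits, 1 had CACGTG within 100 bp (0.971%, against 3.61% of all POL2 summits) and 2 had CACGCG (1.94% against 7.67%). The summits in exons 2 and 3 of MYC were at least 2680.5 bp from CACGCG and at least 5244.5 bp from CACGTG. A match is a description of the letters near a summit, and the lack of one says only that these letters are not in that window.

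POL2 was strongest at the start of MYC. All 6 libraries had a summit between 127736257 and 127736271, 26 to 40 bp past the canonical start site in exon 1, and in each library it was the best-ranked POL2 summit of the whole 1.5 Mb. Its percentiles were 0.450, 4.14 and 0.826 in WT and 0.515, 1.12 and 0.675 in SLK-KO replicates 1, 2 and 3, and the ranges overlapped. WT replicate 2, the shortest POL2 list, was highest. The WT mean was 1.81 ± 2.03 and the SLK-KO mean 0.770 ± 0.314 (SD, n = 3 each), a difference of -1.04 percentile points that was smaller than the WT spread (two-sided exact permutation p = 0.7, adjusted 0.788 over 9 tests). With 3 against 3 libraries this test cannot give a p below 0.1. Without WT replicate 2 the difference was 0.13 points, in the other direction. Among the 3615 coding genes with POL2 at a start site in every library (18.1% of 19970), MYC stood 75th by its median percentile of 0.751.

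A second POL2 site lay near the end of MYC (127741977 to 127742387), in the untranslated part of exon 3, 564 to 974 bp before the annotated gene end, and was present in all 6 libraries. Its percentiles were 11.5, 64.8 and 12.9 in WT and 7.08, 22.7 and 19.4 in SLK-KO, with overlapping ranges and WT replicate 2 again the weakest. Between start and end, POL2 had a summit in coding exon 3 (127740563 to 127740612) in SLK-KO replicates 2 and 3 and in no WT library. In these libraries it was 57 and 2 bp from the MYC-antibody summit of the same-numbered library. Of the 40 POL2 sites of the region, 5 were in at least 2 SLK-KO and no WT library, this one included. The reverse, at least 2 WT and no SLK-KO library, held for 0. The share of all POL2 sites with this pattern is not given here. WT replicate 1 had a POL2 summit in intron 2 (127739858) of its own. The MYC-antibody site in exon 2 had no POL2 summit near it, the closest in the same-numbered libraries being 2060 to 2141 bp away.

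At CASC11, POL2 summits were few and weak. A site at -402 to -339 bp from its canonical start (127734306 to 127734369) was present in WT replicate 3 (percentile 82.0) and in SLK-KO replicates 2 and 3 (40.0 and 30.2). Within 1 kb of any annotated CASC11 start, WT replicate 1 also had a summit, at percentile 40.7, which is the one in intron 2 of MYC. Counting a library without a summit as 100, the WT mean was 74.2 ± 30.4 and the SLK-KO mean 56.7 ± 37.8 (SD, n = 3 each), and the difference of -17.5 points was within the spread (two-sided exact permutation p = 0.6, adjusted 0.771). It ranged from -39.2 without SLK-KO replicate 1 and -34.3 without WT replicate 1 to -4.66 without WT replicate 2 and -4.26 without SLK-KO replicate 3, and was -9.16 without SLK-KO replicate 2. It was -37.3 within 500 bp of a start and -0.872 in lists cut to 5047 summits. The MYC-antibody site in exon 2 of MYC lies 484 to 632 bp from the outermost CASC11 start, so by distance alone CASC11 too carried MYC in every SLK-KO and no WT library. That call was made for 0.256% of lncRNA genes and 0.876% of coding genes, and at CASC11 and MYC it rests on the same summits.

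PVT1 held 55 POL2 summits, 12, 5 and 7 in WT and 10, 9 and 12 in SLK-KO. They formed 20 sites, 3 of them in all 6 libraries and 9 in 1 library only. Of the 55 summits, 45 were in the first 120 kb of the 392.6 kb gene, and 3 were in exons of the canonical transcript. The stretches within 1 kb of an annotated PVT1 start make up 11.98% of the gene and held 21 of the 55. Of lncRNA genes, 5.88% had POL2 within 1 kb of any annotated start in all 6 libraries. At PVT1 it was within 1 kb of the canonical start in all 6, at 353, 380 and 65 bp past it in WT and 727, 110 and 18 bp past it in SLK-KO. The summit at 727 bp, in SLK-KO replicate 1, was a site of its own under joining at 250 bp. The POL2 percentiles at the PVT1 start were 18.8, 51.3 and 30.6 in WT and 29.8, 22.8 and 31.6 in SLK-KO, far weaker than at the start of MYC in every library. With all annotated PVT1 starts counted, the best percentile within 1 kb averaged 19.99 ± 18.1 for WT and 23.3 ± 6.23 for SLK-KO (SD, n = 3 each; difference 3.31 points, two-sided exact permutation p = 0.8, adjusted 0.8). The difference was -3.996 points without WT replicate 1. In lists cut to 5047 summits it was 46.3 points (18.2, 40.3 and 28.1 in WT against 100, 69.6 and 56.0 in SLK-KO, the 100 standing for a library without a summit). These ranges did not overlap (two-sided exact permutation p = 0.1, the smallest possible), and 9.7% of 8846 coding and lncRNA genes were likewise weaker in every SLK-KO library, 13.5% in every WT library.

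The 3 POL2 sites of PVT1 in all 6 libraries were at 15.7 kb in intron 2 (127810010 to 127810432) and at 113.3 kb (127907704 to 127907916) and 116.8 kb (127911337 to 127911372) in intron 3, measured from the PVT1 start. The middle of the 116.8 kb site lies at -650 bp from an annotated internal start. At 113.3 kb the percentiles were 9.74, 19.9 and 15.2 in WT and 13.8, 29.0 and 40.6 in SLK-KO. At 116.8 kb they were 5.37, 40.3 and 14.3 in WT and 46.3, 27.9 and 17.3 in SLK-KO. Both sets of ranges overlapped. The best-ranked POL2 summit of the region after the start of MYC was the 116.8 kb one in WT replicate 1 and SLK-KO replicate 3, and the 113.3 kb one in WT replicate 2. No summit of either antibody was called between 127949964 and 128176595, 226.6 kb of PVT1 that hold the hairpins of MIR1205, MIR1206, MIR1207 and MIR1208. MIR1204, 1.45 kb from the PVT1 start, had a POL2 summit within 1 kb in 2 libraries, SLK-KO replicates 1 and 3. At the far end, a POL2 site in intron 10 (128176595 to 128176691) was called in 2 WT libraries and each SLK-KO library, and SLK-KO replicate 2 had a MYC summit 301 bp away from it. Its other MYC summit inside PVT1 (127854323) was at -73 bp from an internal start and 167 bp from a POL2 summit.

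To set lists of unequal length on 1 scale, the 3024 POL2 sites found in all 6 libraries (8.76% of 34536) were ordered by score among themselves in each library, a comparison chosen after the ranks had been seen. The start of MYC was 72nd, 197th and 77th in WT and 95th, 167th and 105th in SLK-KO. The end of MYC was at 1624, 2347 and 1100 in WT and 1135, 2183 and 2090 in SLK-KO. Both had overlapping ranges. All 3 PVT1 sites stood lower in the order in every SLK-KO than in every WT library. The site at 15.7 kb was at 2131, 1033 and 2581 in WT and 2912, 2778 and 2879 in SLK-KO. That at 113.3 kb was at 1419, 878 and 1276 against 1880, 2476 and 2803, and that at 116.8 kb at 841, 1642 and 1213 against 2949, 2428 and 1949. Over all shared sites, 15.8% were lower in every SLK-KO library and 15% higher. The 3 sites were not tested as a group. The start of PVT1 among the 84 MYC sites in all 6 libraries was 24th, 35th and 43rd in WT and 38th, 46th and 55th in SLK-KO, with overlap. Of these 84 sites, 9.52% were lower and 10.7% higher in every SLK-KO library.

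**Figure D3:**
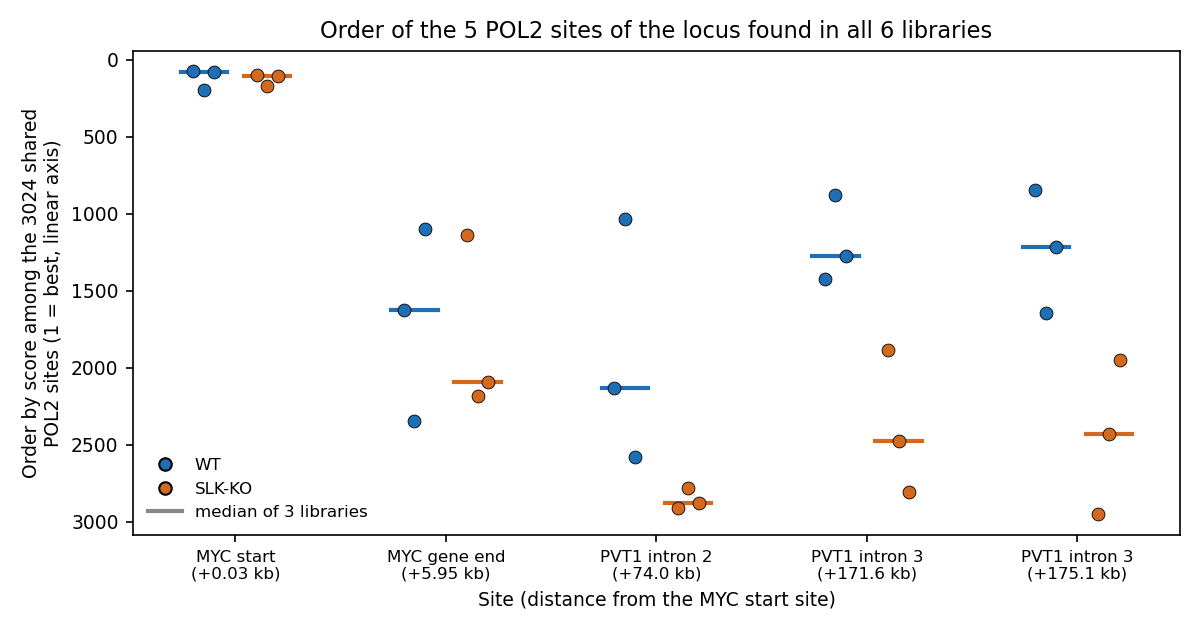
Order by score of the 5 POL2 sites of the region found in all 6 libraries, among 3024 such sites (1 is the best-scored; the axis is linear and runs downward); points are libraries and bars are medians of 3. At the start and end of MYC the genotypes overlap, and at the 3 PVT1 sites each SLK-KO library stands lower than each WT library.

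As numbers per library, MYC gave a mean of 1 ± 0 summits for WT and 4 ± 1 for SLK-KO (SD, n = 3 each; difference 3, two-sided exact permutation p = 0.1, the smallest possible, adjusted 0.45). Of 872 windows of 1.5 Mb with a MYC summit, 25.1% likewise had more in every SLK-KO than in every WT library. Most of the added SLK-KO summits were those in the MYC gene, where this direction was known beforehand from earlier results of these data. The test of this number is thus a description and no independent support. In lists cut to 201 summits the numbers were 1 in each WT and 2 in each SLK-KO library. This follows from the ranks given above, the second SLK-KO summit being the one in exon 2 of MYC. The share of all windows with this pattern at that length is not given here, so how common it is cannot be said. Per 1000 summits of the list, the MYC means were 3.82 ± 1.12 for WT and 3.28 ± 0.242 for SLK-KO (SD, n = 3 each), and the ranges overlapped (difference -0.54, two-sided exact permutation p = 0.6, adjusted 0.771). That value was -5.07 among summits with a score of at least 10 and -1.08 without WT replicate 1, and it changed sign to 4.98 in lists cut to 201 summits and to 0.038 without WT replicate 2. In the PVT1 gene body MYC summits numbered 1, 1 and 0 in WT and 1, 3 and 1 in SLK-KO (difference 1, two-sided exact permutation p = 0.6, adjusted 0.771). The 0 is WT replicate 3, whose summit lay at -4 bp from the annotated start.

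POL2 gave a mean of 15.3 ± 6.51 summits for WT and 19 ± 1 for SLK-KO (SD, n = 3 each; difference 3.67, two-sided exact permutation p = 0.5, adjusted 0.771). Per 1000 summits of the list the values were 1.28, 1.78 and 1.51 in WT and 0.999, 1.17 and 1.23 in SLK-KO, without overlap (difference -0.40, two-sided exact permutation p = 0.1, adjusted 0.45). Of 1672 windows with a POL2 summit, 8.07% were higher in every WT library on this scale and 16.5% in every SLK-KO library. In lists cut to 5047 summits the region held 10, 9 and 9 POL2 summits in WT and 4, 6 and 7 in SLK-KO. Of 1464 windows, 5.6% had more in every WT library at that length and 8.4% more in every SLK-KO library. In PVT1 the difference was 2.33 with all summits (two-sided exact permutation p = 0.5, adjusted 0.771). At 5047 summits PVT1 held 7, 5 and 6 in WT and 1, 3 and 2 in SLK-KO (difference -4, two-sided exact permutation p = 0.1), a direction shown without overlap by 1.63% of 7868 genes with a summit (the reverse by 2.96%). These are coding and lncRNA genes of any length with at least 1 summit in any library, so they are not matched to PVT1 in length or summit number. With WT replicate 2 left out the difference in PVT1 was -4.5 at 5047 summits and -0.17 at 9925 summits, where PVT1 held 8 and 7 in WT and 8, 7 and 7 in SLK-KO, so for these 5 lists it depended on the length chosen. At 9925 summits the region held 17 and 15 in WT and 11, 14 and 13 in SLK-KO. Of 1585 windows, 8.9% had more in both WT libraries at that length and 13.8% more in every SLK-KO library.

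**Figure D4:**
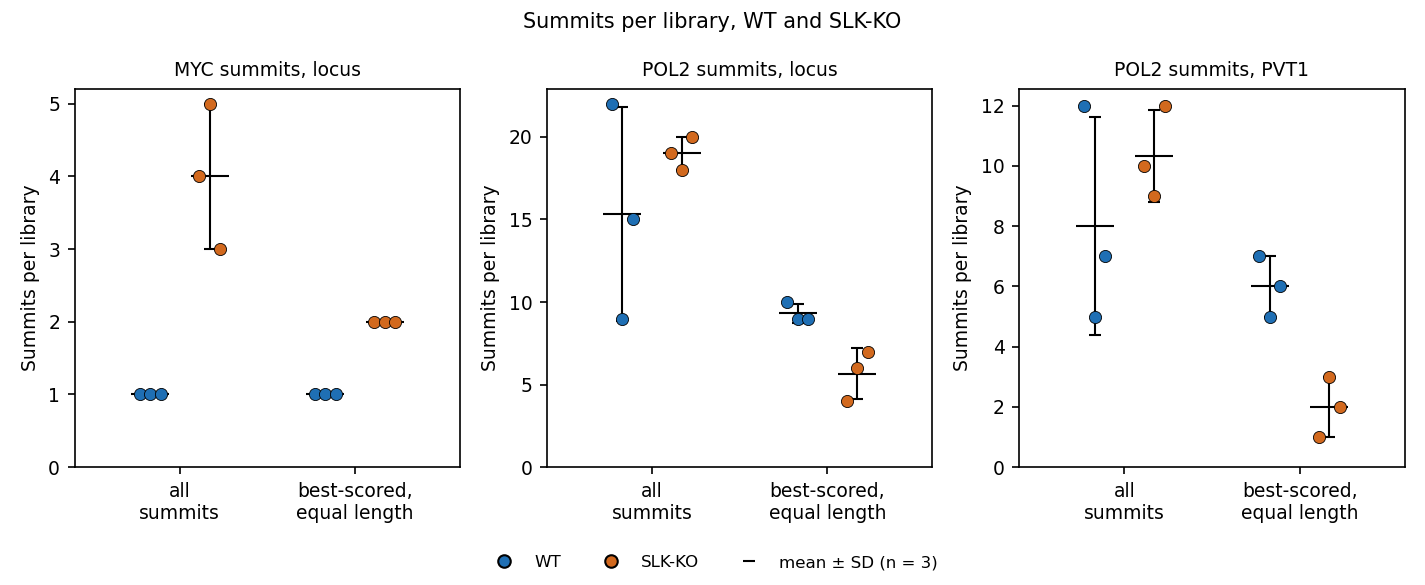
Summits per library in the 1.5 Mb for MYC (left) and POL2 (middle) and in the PVT1 gene body for POL2 (right), with all summits and with lists cut to equal length (201 for MYC, 5047 for POL2); points are libraries, bars mean ± SD of 3. The MYC numbers are higher in SLK-KO in both forms, a direction known beforehand at the MYC gene. The POL2 numbers change direction between the forms.

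By site, 3 of the 6 MYC sites of the region were in at least 2 SLK-KO libraries (50%, against 39.4% of all MYC sites). The start of PVT1 was the 1 site in at least 2 WT libraries (16.7% against 8.99%) and in at least 2 of each (16.7% against 8.35%). The 2 sites in MYC exons 2 and 3 made 33.3% in every SLK-KO and no WT library, against the 6.94% given above. With 6 sites, 1 site is 16.7%, and these shares were not tested. Of the 40 POL2 sites, 11 were in at least 2 WT libraries (27.5%, against 23.2% of all POL2 sites), 19 in at least 2 SLK-KO libraries (47.5% against 40.8%) and 10 in both (25% against 20.2%). The POL2 shares were thus near those of all POL2 sites. No POL2 site was in 3 SLK-KO libraries and no WT one (2.98% of all POL2 sites) or the reverse (0.107%), and 19 were in 1 library. POL2 summits came to 6 to 14.7 per Mb over the libraries, against 1.61 to 4.97 on the rest of chromosome 8 and 1.65 to 6.32 on other chromosomes. Of 2010 windows of 1.5 Mb over the genome, 12.3% had at least 40 POL2 sites, and the median was 9. MYC summits came to 0.667 per Mb in each WT library, which is 1 summit, and 2 to 3.33 per Mb in SLK-KO, against 0.104 to 0.466 on the rest of chromosome 8. Of the same windows, 3.93% had at least 6 MYC sites, and the median was 0.

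On the side of CASC11 away from PVT1, the best-ranked POL2 site lay at -441.4 kb from the MYC start, inside the overlapping lncRNA genes PCAT1 and CASC8, both first described from studies of prostate or other cancers. A site there (127294822 to 127294859) was called in WT replicate 3 (percentile 27.6) and in the 3 SLK-KO libraries (12.7, 19.3 and 22.1). WT replicates 1 and 2 had summits close by (127295117 and 127294311, percentiles 18.9 and 64.5) that were more than 250 bp away and so counted as separate sites. CASC19 had a POL2 site near one of its starts (127225046 to 127225517) in 2 WT libraries and each SLK-KO library, at percentiles of 37.7 to 98.3. CASC8 had one inside the gene (127478569 to 127478823), 3443 bp from a start site, in as many libraries. POU5F1B, the only other coding gene of the stretch, and PRNCR1, CCAT2 and LINC00824 had no summit of either antibody within 1 kb of a start site. PCAT1 reaches beyond the stretch and shares with the coding gene LRATD2 a promoter where POL2 was called in all 6 libraries and MYC in 2 libraries of each genotype.

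The other nearest coding genes varied. TRIB1, a pseudokinase gene upstream, had POL2 at ranks of 39 to 50 in all 6 libraries, and a MYC summit in 1 library of each genotype. ASAP1, downstream, had POL2 in all 6 and MYC in 2 WT libraries and each SLK-KO library. CYRIB had POL2 in 5 libraries and no MYC summit, and GSDMC had neither.

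In the wider MYC and MAX network, MYCN and MLX and MLXIP, of the parallel MLX branch, had no summit of either antibody at a start site. MYCL had POL2 in each SLK-KO and no WT library, a call made for 1.55% of coding genes, at ranks of 7803 to 11475. These ranks are past the end of the shortest WT list (5047 summits) but within the longest (17126). The best of them, 7803, is also within the list of WT replicate 3 (9925). MAX, the obligate partner of MYC, had POL2 in 2 WT libraries and each SLK-KO library, and MYC in 1 SLK-KO library. Among the genes for MAX partners that oppose MYC, MXD3 had the most MYC summits, in 2 WT libraries and each SLK-KO library at ranks of 60 to 192, followed by MXD1 (1 WT and 2 SLK-KO) and MGA (0 WT and 2 SLK-KO). MNT, MXD4 and MXI1 had none. None of these 11 genes had MYC in every SLK-KO and no WT library.

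Coding genes were compared with MYC over the 12 libraries by their best percentile within 1 kb of any annotated start. The measure was the mean absolute difference, with a missing summit set to 100. For MYC itself, the MYC-antibody values are those of the exon 2 site, which counts through annotated internal starts and not the canonical one. Among the closest genes were HNRNPAB (3.35 points), RPLP0 (5.05), SFPQ (5.26) and LUC7L3 (5.73). All 4 had POL2 in all 6 libraries and a MYC summit in every SLK-KO library, and HNRNPAB and SFPQ had none in WT. RPLP0 and LUC7L3 had a MYC summit in 1 WT library each, at percentiles of 85.6 and 87.3. The genes were picked by these same values, so a pattern like that of MYC follows largely from the choice.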

How the data were processed

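Per the labels and the series' design text, reads were paired-end of 50 bp and went through nf-core/chipseq 2.1.0 with GRCh38.p14 as reference. The submitters' processing notes name BWA 0.7.18-r1243, Picard 3.2.0 and MACS3 3.0.1. The control libraries and caller options used are not given in the sources used here. Each deposited list holds 1-bp summits of 1 library with a score, read as −log10 of the q-value since list minima were 1.30169 to 1.4289, above the 1.30103 that is −log10 of 0.05. The lists hold no read counts, so depth and intervals are not available.

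Positions were set against GENCODE release 44 and the GRCh38 sequence. The 9 tests were two-sided exact permutations over the 20 relabellings of 3 against 3 libraries, with Benjamini-Hochberg adjustment over the 9. The design text calls the replicates biological. Genes were named by rule: members, genes of the stretch with a summit at a start site in at least 2 libraries, 3 nearest coding genes on each side, 11 MAX network genes, and the 5 genes most like MYC, of which 1 is not reported here, nor are some marker genes. CASC8, PRNCR1, CCAT2, LINC00824 and MIR1205 to MIR1208, and the lncRNA genes set beside PVT1, were named outside it after their values were seen. The members and lists were chosen with earlier results of these data known. Site joining was tested on simulated data. Alternatives covered list length, score, windows, bounds, the replicate block and leaving out libraries. Sequences of the region are not printed. Work was done in Python 3.11.15 with numpy 2.4.6, pysam 0.24.0 and matplotlib 3.10.9, and samtools 1.23.1.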

Additional observations from a re-analysis of the deposited data

How the results depend on the processing

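Of 108 alternatives to the 9 tests, 96 kept the direction and 12 reversed. The 96 include the sign flips of the replicate block, which cannot change a difference. With a smallest p of 0.1 no side of a threshold could change. Of 116 alternatives to counts, 19 moved it by over 1.5 times and 97 did not. With lists of equal length, MYC summits per 1000 went to 4.98, POL2 summits in the region to -3.67, POL2 summits in PVT1 to -4 and the POL2 percentile at MYC to 0.086. With the 5 longer POL2 lists, chosen after seeing the data, POL2 summits in the region went to -3.33 and in PVT1 to -0.17 at 9925 summits, and to -3.83 and -4.5 at 5047. Within 500 bp of a start site the POL2 percentile at PVT1 went to -8.60. At equal length, POL2 had 5 sites in 2 or more SLK-KO libraries and 4 in 2 or more of each, and 1 MYC site was in every SLK-KO but no WT library. Joining at 100 bp gave 5 POL2 sites in at least 2 of each, 2 in every SLK-KO but no WT library and 1 in the reverse. CACGCG in place of CACGTG was at 6 MYC and 2 POL2 summits. The cause of these changes was not tested.

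Leaving out each library in turn gave differences of -1.08 to 0.038 for MYC summits per 1000 (reversed without WT replicate 2), -1.71 to 0.13 for the POL2 percentile at MYC (reversed without WT replicate 2) and -3.996 to 13.5 for that at PVT1 (reversed without WT replicate 1). POL2 sites in at least 2 WT libraries ranged from 6 to 11, in at least 2 SLK-KO from 12 to 19, in both from 5 to 10, in SLK-KO alone from 0 to 2 and in WT alone from 0 to 1. Without WT replicate 1 they were 6 in WT and 5 in both, without WT replicate 3 they were 7 and 6, and 12 in SLK-KO was without its replicate 3. The difference in POL2 number was 7 without WT replicate 1 and 0.50 without WT replicate 2.

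Both genotypes use replicate numbers 1 to 3, which were not taken as pairs: deviations of site presence in libraries of 1 number correlated little (-0.0215 to 0.0317 for MYC and -0.0245 to 0.00580 for POL2). With the replicate block, tested by sign flips, the 9 differences are the same by construction (3 for MYC and 3.67 for POL2 summits of the region). With a smallest possible p of 0.25 no call could change, so this setting is no check of the results. Unknown depth and 3 libraries per group limit every comparison.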

Other observations

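Inside intron 2 of PVT1, 8 CACGTG motifs follow each other at an even spacing of 51 bp (chromosome 8, 127849665 to 127850027), 55.1 kb from the PVT1 start. They make up 8 of the 50 CACGTG motifs of PVT1. No MYC summit of any library was closer than 4301 bp to them and no POL2 summit closer than 1662 bp.

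Upstream of MYC, stretches without a summit of either antibody reached 180.3 kb (127298288 to 127478569) and 167.3 kb (127567020 to 127734306). The first lies within the CASC8 gene and has POU5F1B and CCAT2 inside, and the second takes in most of the CASC11 gene. Beyond PVT1, the most repeated POL2 signal was at 128314490 to 128314529, 578.3 kb from the MYC start and in no annotated gene, in 1 WT and 2 SLK-KO libraries at percentiles of 58.7 to 84.9. WT replicates 1 and 3 had summits close by (128314988 and 128314045, percentiles 42.2 and 84.3) that joining at 250 bp left as separate sites.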
